A study of Mus musculus with 4 samples.

Results

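Motile cilia and multiciliation genes were measured in RNA from whole left lung lobes of C57BL/6 mouse embryos at E17. The set holds the genes of a list of 48 symbols that the deposited table carries under those symbols, which was the case for 46 of the 48, out of 45706 genes in the table. The listed *Dnai1* and *Dnai2* were not found by these names, and the table carries them as *Dnaic1* and *Dnaic2*, the earlier symbols that RefSeq gives. The 2 *Myh10+/+* lungs came from wild-type embryos, and the 2 *Myh10-/-* lungs came from embryos homozygous for L458R, a missense allele of *Myh10* recovered from a chemical mutagenesis screen. *Myh10* encodes the heavy chain of non-muscle myosin II-B. All 4 embryos were untreated, each lung stands for 1 embryo, and the mutation is present in every cell, so that the lobes hold mutant epithelium and mutant mesenchyme together. The labels give neither litters nor sexes.

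A motile cilium is a hair-like projection built on a ring of microtubule doublets, the axoneme. Outer and inner dynein arms drive sliding of the doublets, and radial spokes, a central apparatus and a nexin-dynein regulatory complex coordinate it. In the lung, motile cilia belong to the multiciliated cells of the conducting airways, where they move mucus. Commitment to this fate passes through a multiciliation programme with *Mcidas*, *Ccno* and *Myb*, and the transcription factors *Foxj1*, *Rfx2* and *Rfx3* switch on the axonemal genes. RFX proteins bind a palindromic site, the X-box, whose arms resemble GTTGCC or GTTGCTA.

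X-box arms are shown first because many members carry one just upstream of their start. The RefSeq promoter table for GRCm38.p6 held 37 of the 46 members, each as the 250 bases before and the 50 bases after the annotated start. GTTGCC, searched on both strands, occurred in 19 of the 37 (51.4%) against 14.1% of 27025 promoters of all genes. GTTGCTA occurred in 15 of the 37 (40.5%) against 4.28% of all promoters. Neither motif contains the other, and 24 of the 37 members held at least 1 of them (64.9%, against 17.4% of all promoters). The following stretches lie upstream of the start and are printed 5′ to 3′ on the strand of the gene, with 1 match in capitals. They belong to 3 multiciliation regulators and to 4 other members with both *Myh10-/-* lungs below both *Myh10+/+* lungs. *Dnali1* and *Rsph9*, which were lower in the same way, held no match, and *Rfx3*, the highest member, held one.
*Ccno*, chr13:112987558-112987613, plus strand: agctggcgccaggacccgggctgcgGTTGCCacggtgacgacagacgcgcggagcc
*Mcidas*, chr13:112993648-112993703, plus strand: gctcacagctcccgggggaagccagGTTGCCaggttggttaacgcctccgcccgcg
*Rfx2*, chr17:56831094-56831149, minus strand: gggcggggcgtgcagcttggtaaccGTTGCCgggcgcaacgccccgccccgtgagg
*Dnah5*, chr15:28203633-28203689, plus strand: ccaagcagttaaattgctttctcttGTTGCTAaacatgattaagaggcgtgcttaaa
*Drc1*, chr5:30281357-30281392, plus strand (match on the opposite strand): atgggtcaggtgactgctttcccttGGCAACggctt
*Dynlrb2*, chr8:116504939-116504994, plus strand: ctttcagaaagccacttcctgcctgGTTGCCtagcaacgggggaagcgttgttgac
*Tekt2*, chr4:126325754-126325809, minus strand: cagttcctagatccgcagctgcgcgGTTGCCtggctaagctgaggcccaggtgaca

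The letters of a half-site do not show that a factor binds. The 24 members with a match had a median log2 fold change between genotypes of -0.13, with 18 below 0 and 6 above. The 13 members without one had a median of -0.12, with 11 below 0 and 2 above.

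Total counts on genes were between 19116971 and 32055306 per lung, and the 46 members took 0.101% and 0.109% of these reads in *Myh10+/+* embryos against 0.103% and 0.0982% in *Myh10-/-* embryos. Levels are given as CPM, counts scaled by TMM to a common library size, always in the order *Myh10+/+* lung 1, *Myh10+/+* lung 2, *Myh10-/-* lung 1 and *Myh10-/-* lung 2. *Myh10* itself was at 505, 504, 539 and 513 CPM, which checks no label because the allele is a missense change. *Ddx3y*, a gene of the Y chromosome, was at 0.437, 182, 198 and 0.0932 CPM, and *Xist*, the transcript of the inactive X, was at 3916, 1.84, 4.10 and 4457 CPM, so that each genotype has 1 lung of each kind. The 2 lungs with *Ddx3y* carry different numbers in the labels.

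None of the 46 members found under their listed symbols passed the threshold of an adjusted p of 0.05 in either direction, in the quasi-likelihood test of edgeR over 18763 genes, where 1.64% of all genes did (1.34% lower and 0.298% higher in *Myh10-/-* lungs). *Dnaic2*, the listed *Dnai2* under its earlier symbol, did pass and is described with the outer arm chains. All 46 members had a mean of at least 5 counts and were tested, with mean counts from 36.8 to 2071 per lung. The members nearest to the threshold were the dynein genes *Dnah5* and *Dnali1*, the tubulin-binding *Tppp3* and the regulatory complex gene *Drc1*, each lower in *Myh10-/-* lungs, at 0.786, 0.730, 0.827 and 0.711 times the *Myh10+/+* level. At an unadjusted p under 0.05 there were 12 members (26.1%, against 16.5% of all genes), 10 of them lower (21.7%, against 9.02%) and 2 higher (4.35%, against 7.52%). With the Wald test of DESeq2, 8 of 46 members had an unadjusted p under 0.05 (17.4%, against 9.52% of all genes). DESeq2 gave an adjusted p for 30 of the members, leaving out *Dnali1* and *Drc1* among others, and 0 of the 30 passed, against 3.5% of the 10032 genes with an adjusted p.

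Most members nonetheless lay slightly below 0. The log2 fold change of *Myh10-/-* over *Myh10+/+* was negative for 37 of 46 members (80.4%, against 49.5% of all genes), with a median of -0.15, quartiles of -0.21 and -0.02 and a range from -0.49 to 0.21. The median over all genes tested was 0.00. Both *Myh10-/-* lungs were below both *Myh10+/+* lungs for 22 members (47.8%, against 24.3% of all genes), and above both for 7 (15.2%, against 23.9%). The summed level of the 46 genes was 1026, 1094, 1025 and 978 CPM, so the first *Myh10-/-* lung reached the level of the first *Myh10+/+* lung and the sums touched between genotypes. In RNA of a whole lobe, fewer ciliated cells and less of these RNAs per ciliated cell cannot be told apart. The paper reports that ciliated and club cell numbers in the distal airways of mutants appeared not significantly changed. Its main text does not give the stage of that count. With 2 embryos per genotype, the 95% intervals of 8 members extended below a log2 fold change of -0.5 and that of 1 member above 0.5, while no interval reached -1 or 1.

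**Figure D1:**
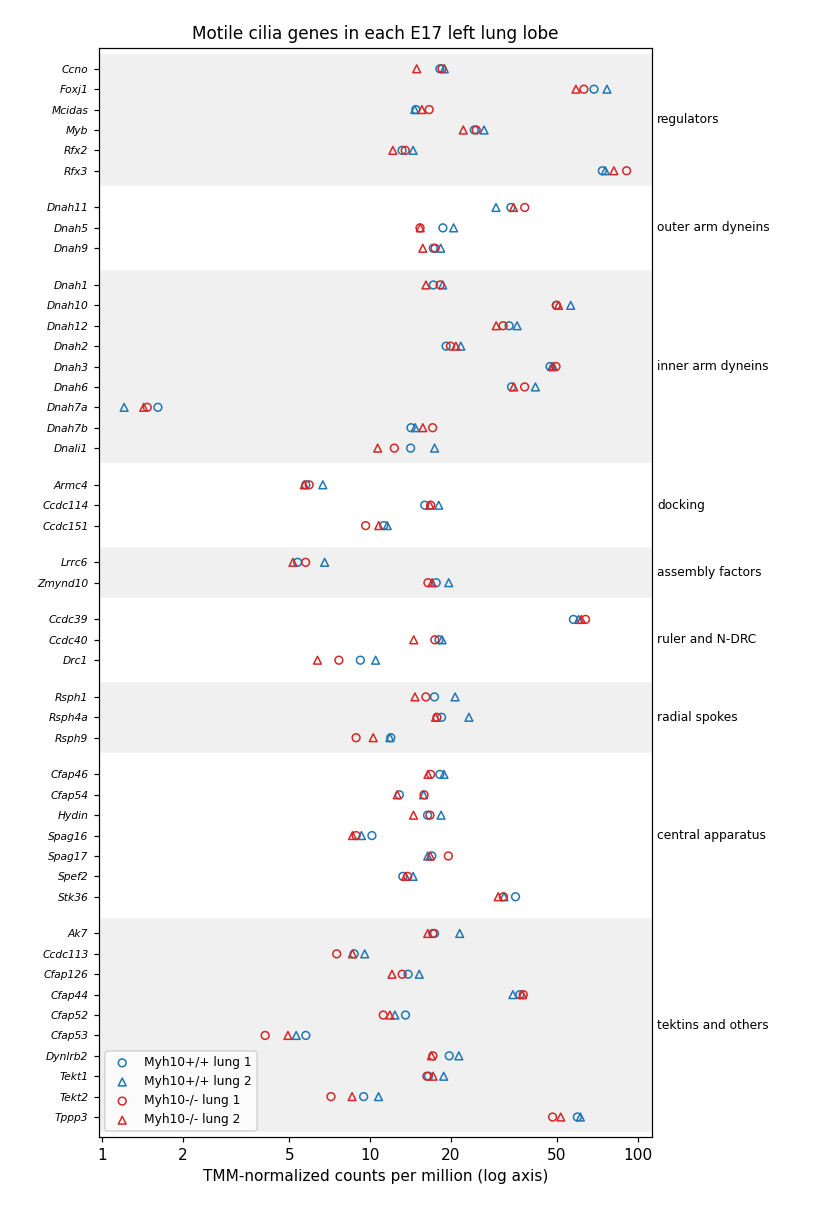
Level of each of the 46 motile cilia genes in each lung, in CPM on a log axis, grouped by role, with blue for *Myh10+/+*, red for *Myh10-/-*, circles for lung 1 and triangles for lung 2. The red symbols lie to the left of both blue symbols for 22 genes and to the right of both for 7.

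**Figure D2:**
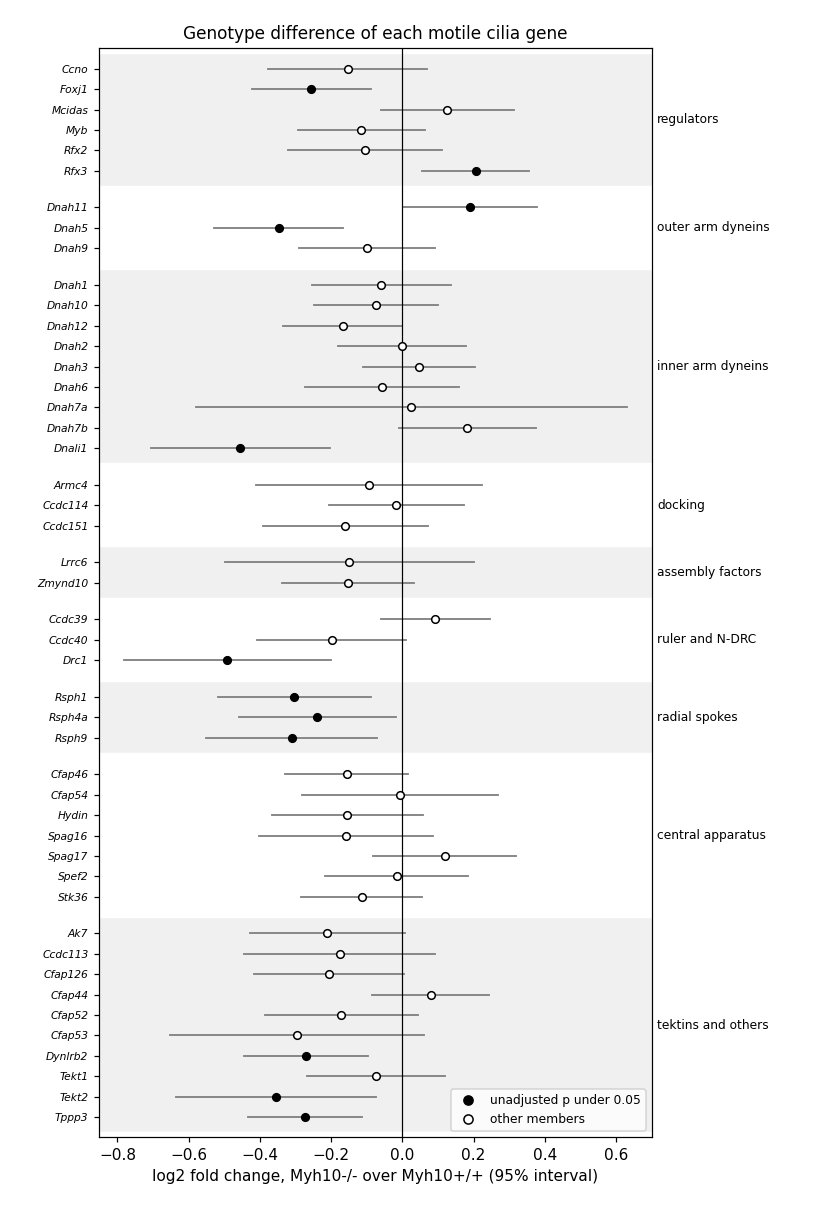
Log2 fold change of *Myh10-/-* over *Myh10+/+* for each member (points) with its 95% interval (lines) from the quasi-likelihood fit, filled where the unadjusted p is under 0.05. Of the 46 points, 37 are below 0, and the 3 radial spoke genes are all filled and below 0.

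Among the 6 regulators, *Foxj1*, the transcription factor that defines the motile ciliated programme, was the lowest. It was at 68.7, 76.8, 62.9 and 58.8 CPM, with both *Myh10-/-* lungs below both *Myh10+/+* lungs. Its log2 fold change was -0.26 (SE 0.08), with an unadjusted p of 0.00587 and an adjusted p of 0.121. *Rfx3*, a transcription factor for ciliary genes with roles also in other ciliated tissues, went the other way at 73.8, 75.7, 90.9 and 81.5 CPM. Both *Myh10-/-* lungs were above both *Myh10+/+* lungs, and the log2 fold change was 0.21 (SE 0.07, adjusted p = 0.162). It was the highest value of all members.

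The regulators that act early in multiciliation differed less. *Mcidas*, a coactivator at the top of the programme, was at 14.8, 14.7, 16.6 and 15.6 CPM, higher in both *Myh10-/-* lungs by a log2 fold change of 0.13 (SE 0.09, adjusted p = 0.50). *Ccno*, which lies next to *Mcidas* on chromosome 13 and is needed for making many basal bodies, was at 18.2, 19, 18.6 and 14.9 CPM, and only the second *Myh10-/-* lung was low. *Myb*, which acts early in the programme and also in blood progenitors, was at 24.5, 26.7, 24.9 and 22.3 CPM. *Rfx2* was at 13.2, 14.5, 13.6 and 12.2 CPM. For *Ccno*, *Myb* and *Rfx2* the genotypes overlapped, and their log2 fold changes were -0.15, -0.12 and -0.10 with adjusted p-values from 0.493 to 0.649.

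The outer dynein arm chains did not move together. *Dnah5*, a heavy chain whose loss causes primary ciliary dyskinesia, was at 18.7, 20.5, 15.4 and 15.4 CPM. Both *Myh10-/-* lungs were almost equal and below both *Myh10+/+* lungs, with a log2 fold change of -0.35 (SE 0.08, adjusted p = 0.0608), the smallest p of any member. *Dnah11*, a heavy chain of the arms near the base of the cilium, was at 33.6, 29.6, 37.9 and 34.4 CPM, with a log2 fold change of 0.19 (SE 0.09, adjusted p = 0.298). Its *Myh10-/-* lungs were both higher, by a margin that was small beside the difference between the *Myh10+/+* lungs. *Dnah9*, the heavy chain of the outer part of the cilium, had a log2 fold change of -0.10 with overlapping genotypes. The intermediate chains listed under earlier symbols were both lower in both *Myh10-/-* lungs.

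*Dnaic2*, an outer arm intermediate chain and not counted among the 46, was at 17.3, 17.4, 13.4 and 13 CPM. The lungs of a genotype were close to each other and the genotypes apart, with a log2 fold change of -0.40 (SE 0.08, 95% interval -0.58 to -0.21, adjusted p = 0.0392), and *Dnaic2* thus fell in the quasi-likelihood test. The adjusted p was 0.108 with DESeq2. It was 0.119 and 0.145 without the first or the second *Myh10+/+* lung, and 0.0717 without the first *Myh10-/-* lung. *Dnaic1*, the partner intermediate chain, was at 5.41, 4.41, 3.99 and 4.04 CPM, with a log2 fold change of -0.30 (SE 0.17, adjusted p = 0.41).

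Of the 9 inner arm genes, 6 were below 0 and the median log2 fold change was -0.06. *Dnali1*, an inner arm light intermediate chain, stood out at 14.2, 17.4, 12.3 and 10.7 CPM, lower in both *Myh10-/-* lungs by a log2 fold change of -0.46 (SE 0.12, adjusted p = 0.0747). The heavy chain with the most counts, *Dnah10*, was at 49.6, 56.2, 49.8 and 50.6 CPM, where only the second *Myh10+/+* lung stood above the rest. The remaining heavy chains *Dnah1*, *Dnah2*, *Dnah3*, *Dnah6* and *Dnah12* had log2 fold changes between -0.17 and 0.05, with adjusted p-values of at least 0.302. *Dnah7b* was at 14.2, 14.8, 17.1 and 15.8 CPM and *Dnah7a* at 1.62, 1.21, 1.47 and 1.43 CPM. For *Dnah7b* the log2 fold change was 0.18, with an adjusted p of 0.325, and for *Dnah7a* it was 0.03, with an adjusted p of 0.977. Both are uncertain, because 21.0% and 26.6% of the 75-base windows along their transcripts also occur in other transcripts, almost all in a *Dnah7* gene, and such reads were left out of the counting.

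Dynein docking and assembly genes were all below 0, with median log2 fold changes of -0.09 and -0.15. Docking complexes fasten the outer arms to the doublets, and *Ccdc114*, *Ccdc151* and *Armc4* had log2 fold changes of -0.02, -0.16 and -0.09. *Ccdc114*, the docking gene with the most counts, was at 16.0, 18.1, 16.9 and 16.7 CPM, without separation of genotypes. *Ccdc151* was at 11.3, 11.6, 9.63 and 10.8 CPM, lower in both *Myh10-/-* lungs (adjusted p = 0.49). *Zmynd10* and *Lrrc6*, which help to preassemble dynein arms in the cytoplasm, had log2 fold changes of -0.15 each. *Zmynd10* was at 17.7, 19.7, 16.5 and 17.1 CPM, slightly lower in both *Myh10-/-* lungs (adjusted p = 0.395).

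*Drc1*, a subunit of the nexin-dynein regulatory complex, had the most negative value of all members. It was at 9.21, 10.5, 7.66 and 6.37 CPM, with the genotypes apart and a log2 fold change of -0.49 (SE 0.13, 95% interval -0.78 to -0.20, adjusted p = 0.0910). *Ccdc39* and *Ccdc40* encode partners in the ruler that sets the spacing of spokes and inner arms along the doublets. *Ccdc39* was at 57.5, 60.1, 63.8 and 61.6 CPM, higher in both *Myh10-/-* lungs by a log2 fold change of 0.09 (adjusted p = 0.553). *Ccdc40* was lower in both *Myh10-/-* lungs by -0.20 (adjusted p = 0.325), so these partners had opposite signs, each short of the threshold. With the offset for GC content and exon length *Ccdc39* was at -0.01.

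All 3 radial spoke genes were lower in both *Myh10-/-* lungs, with a median log2 fold change of -0.30. *Rsph1*, a spoke head gene, was at 17.4, 20.8, 16.2 and 14.7 CPM (log2 fold change -0.30, SE 0.10, adjusted p = 0.15). *Rsph9*, also of the spoke head, was at 12, 11.9, 8.88 and 10.3 CPM (-0.31, SE 0.11, adjusted p = 0.179). *Rsph4a*, the spoke gene with the most counts, was at 18.5, 23.4, 17.8 and 17.6 CPM (-0.24, SE 0.10, adjusted p = 0.263). The first *Myh10+/+* lung was close to the *Myh10-/-* lungs for *Rsph1* and *Rsph4a*, and the second was the high one. The summed level of the 3 genes was 47.9 and 56.1 CPM in *Myh10+/+* lungs and 42.8 and 42.6 CPM in *Myh10-/-* lungs.

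The 7 genes of the central apparatus, the pair of single microtubules in the middle of the axoneme and its projections, had a median log2 fold change of -0.11. Of these, *Cfap46*, *Cfap54*, *Hydin*, *Spag16*, *Spef2* and *Stk36* were below 0, between -0.16 and -0.01, and *Spag17* was at 0.12. *Stk36*, a kinase needed for assembling the central pair, had the most counts and was at 35.0, 31.7, 31.5 and 30.1 CPM. The second *Myh10+/+* lung and the first *Myh10-/-* lung were almost level (adjusted p = 0.501).

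Among the 10 tektins and other cilia and flagella associated genes, 9 were below 0 and 8 had both *Myh10-/-* lungs below both *Myh10+/+* lungs. Over all genes tested these shares were 49.5% and 24.3%. *Tppp3*, a tubulin polymerization promoting protein abundant in ciliated cells, was at 59.5, 61.1, 48.1 and 51.6 CPM, clearly apart between genotypes. Its log2 fold change was -0.27 (SE 0.07, adjusted p = 0.0870). *Dynlrb2*, a dynein light chain of the roadblock family, was at 19.8, 21.5, 17.2 and 17.0 CPM (-0.27, SE 0.08, adjusted p = 0.115). *Tekt2*, a filament protein along the doublets, was at 9.47, 10.8, 7.15 and 8.58 CPM (-0.35, SE 0.13, adjusted p = 0.191). *Ak7*, *Ccdc113*, *Cfap52*, *Cfap53*, *Cfap126* and *Tekt1* were between -0.30 and -0.07, and *Cfap44* was at 0.08.

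Per kilobase of annotated exon, the mean level over the 4 lungs was highest for *Dynlrb2* at 33.9 CPM per kb, *Tppp3* at 29.8 CPM per kb and *Foxj1* at 25.5 CPM per kb. *Rsph1* followed at 12.6 CPM per kb and *Tekt1* at 10.6 CPM per kb. The lowest was *Dnah7a* at 0.112 CPM per kb, from the unique reads alone.

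The members with short transcripts were the lower ones. Of the 21 members with up to 5000 bp of annotated exon, 20 were below 0 and 1, *Mcidas*, was above, with a median log2 fold change of -0.21. Of the 25 longer members 17 were below 0 and 8 above, with a median of -0.06, and *Dnah5* was the clear exception among them. Across the 46 genes Spearman's rho between exon length and log2 fold change was 0.568, given as a description because all points share the same 4 libraries. Across 18664 tested genes it was 0.044, and the medians over all genes were -0.02 up to 5000 bp and 0.02 above. With an offset for GC content and exon length fitted per lung, the medians of the members were -0.19 and -0.08.

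**Figure D3:**
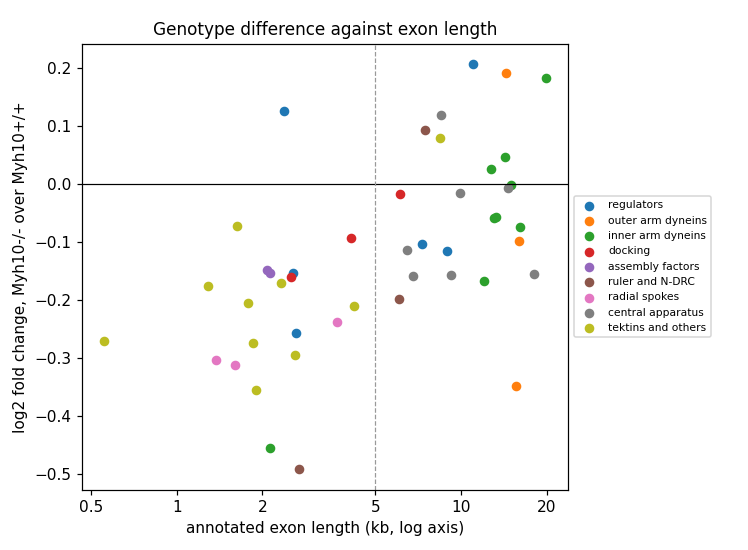
Log2 fold change of *Myh10-/-* over *Myh10+/+* against annotated exon length in kb (log axis) for the 46 members, coloured by role, with a dashed line at 5 kb. To the left of the line 20 of 21 genes are below 0, and to the right 17 of 25.

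Some values carry a limit from overlapping genes, since it is not stated whether the counting used the strand. Exons of 16 members overlap an annotated gene on the opposite strand, by 43 to 1506 bp: *Ccdc39*, *Ccdc114*, *Cfap52*, *Dnah1*, *Dnah2*, *Dnah3*, *Dnah6*, *Dnah9*, *Dnah10*, *Dnah11*, *Dnali1*, *Hydin*, *Myb*, *Spag17*, *Tekt2* and *Zmynd10*. The largest overlaps were those of *Dnah3* with *Lyrm1* (1506 bp), *Spag17* with *Wdr3* and *Spag17os* (1336 bp), *Ccdc39* with *Ttc14* (1256 bp) and *Dnah11* with *Cdca7l* (642 bp). These 4 genes are all among the 9 members above 0. The 16 overlapped members had a median log2 fold change of -0.07, with 12 below 0. The other 30 had a median of -0.16, with 25 below 0. Both *Myh10-/-* lungs were below both *Myh10+/+* lungs for 18 of them (against 24.3% of all genes) and above both for 4 (against 23.9%). Among these 30, the 17 with up to 5000 bp of exon had a median of -0.21 and the 13 longer ones -0.10.

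The lungs of one genotype also differed from each other over the members. Between the *Myh10+/+* lungs, 36 of 46 members were higher in the second, by a median log2 ratio of 0.12, where 49.2% of all genes were higher. Between the *Myh10-/-* lungs, 34 of 46 were lower in the second, by a median of -0.06, where 50.3% of all genes were higher. The difference exceeded the counting error for 9 members in the *Myh10+/+* pair and for 11 in the *Myh10-/-* pair. *Foxj1*, *Dnah6*, *Dnah11* and *Cfap54* were beyond it in both pairs, and the share of all genes beyond it was not counted.

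The lungs with the higher levels were those with *Ddx3y* counts, and 27 members were higher in this lung of both genotypes, a count not made over all genes. Between the 2 lungs with *Ddx3y*, 36 of 46 members were lower in the *Myh10-/-* lung, by a median of -0.14. Between the 2 with high *Xist*, 33 of 46 were lower in the *Myh10-/-* lung, by a median of -0.10. The other pairings ranged more widely. From the first *Myh10+/+* to the first *Myh10-/-* lung 24 members were lower and 22 higher, with a median of -0.02, and between the second lungs 37 were lower, with a median of -0.21. Each genotype has 1 lung of each kind, so any difference between its lungs falls along the sex-linked levels. Sex and other differences between the embryos cannot be told apart here, and neither was tested. The median log2 fold change of the members was -0.068 without the second *Myh10+/+* lung, with 29 of 46 below 0, and -0.075 without the second *Myh10-/-* lung. Leaving out 1 lung at a time, the number of members past the adjusted threshold ran from 0 to 6. The 6 (13% of members) came without the second *Myh10-/-* lung, where 9.73% of all genes passed.

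**Figure D4:**
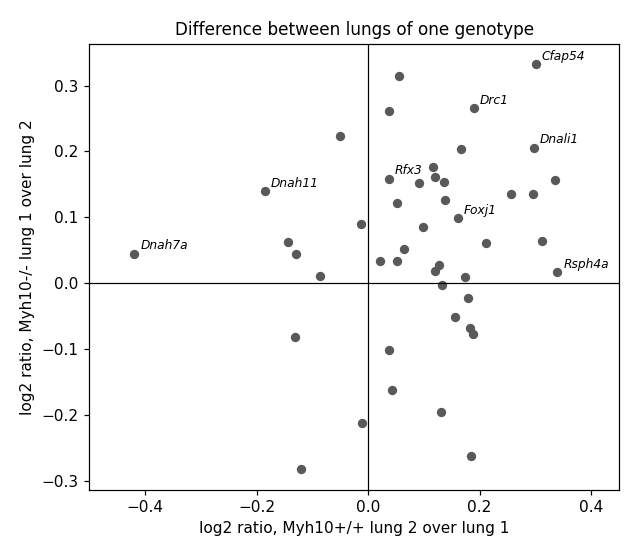
Log2 ratio between the *Myh10+/+* lungs (x axis, lung 2 over lung 1) against the log2 ratio between the *Myh10-/-* lungs (y axis, lung 1 over lung 2), 1 point per member. Of the 46 points, 27 lie to the upper right of both zero lines, where the lung with *Ddx3y* is the higher one in both genotypes.

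Further genes of the cilium were read from lists drawn up beside the members. Of 49 other axonemal genes tested, 0 passed the adjusted threshold, 36 were below 0 and the median log2 fold change was -0.17, close to that of the members. The one with the most counts, *Dnal1*, an outer arm light chain, was at 73.1, 66.7, 75.5 and 72.4 CPM, without separation of genotypes. Of 8 other dynein assembly factors none passed, with a median of -0.06. *Pih1d1*, a chaperone cofactor with the most counts among them, was at 40.3, 45.4, 38.0 and 41.5 CPM, and *Dyx1c1* was listed at 0 in all lungs. At an unadjusted p under 0.05 there were 13 of the axonemal genes, all lower, and 1 of the assembly factors, which was higher. Of all genes, 9.02% were lower and 7.52% higher at that level.

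Genes of intraflagellar transport and of centrioles are shared by cilia of all kinds. Of 30 intraflagellar transport genes, which carry cargo along motile and primary cilia alike, 0 passed the adjusted threshold in edgeR. For 3 of them the unadjusted p was under 0.05, against 16.5% of all genes. The median log2 fold change of the 30 was 0.01, with 14 below 0 and 16 above. *Ift172*, with the most counts, was at 85.8, 86.8, 94.6 and 87.0 CPM. Of 16 other multiciliation and centriole genes, 13 were above 0 and the median was 0.07. Of these 16, 4 were higher at an unadjusted p under 0.05, against 7.52% of all genes. Both *Myh10-/-* lungs were above both *Myh10+/+* lungs for 8 of the 16, against 23.9% of all genes. *Sass6*, which builds the cartwheel of new centrioles in dividing and multiciliating cells, rose from 18.3 and 16.5 CPM to 23.8 and 22.4 CPM, with a log2 fold change of 0.41 (SE 0.08, adjusted p = 0.0311). The call was lost with DESeq2 and without either the second *Myh10+/+* lung or the first *Myh10-/-* lung, with adjusted p-values up to 0.279. The cell cycle factor *Tfdp1* had the most counts of that list and was at 82.6, 73.9, 87.6 and 86.9 CPM.

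Markers of ciliated airway cells outside the axoneme had a lower median than the members. Of 16 such genes 14 were below 0 with a median log2 fold change of -0.27, and their summed level was 375 and 383 CPM in *Myh10+/+* lungs and 281 and 317 CPM in *Myh10-/-* lungs. *Sec14l3*, which encodes a lipid-binding protein and was listed as a ciliated cell marker, was the 1 that passed. It fell from 267 and 259 CPM to 184 and 215 CPM, with a log2 fold change of -0.40 (SE 0.06, adjusted p = 0.0118), and it made up most of that sum. It passed in each of the other settings tried, with an adjusted p of at most 0.0209. From the first to the second lung, the log2 ratio of *Sec14l3* was -0.04 in *Myh10+/+* and 0.22 in *Myh10-/-*, where the member medians were 0.12 and -0.06. None of the 16 was at 0 in all lungs, and whether the ciliated markers and the members differed from each other was not tested. Which cells of the lobe the *Sec14l3* RNA came from was not tested either.

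Some markers of the remaining epithelium passed the threshold. Of 10 club cell genes, the secretory neighbours of ciliated cells, all were below 0 with a median of -0.38, and *Scgb1a1*, *Cbr2* and *Cyp2f2* fell. With DESeq2, and with robust = TRUE in edgeR, *Cyp2f2* was the only 1 of these that passed, and the adjusted p reached 0.343 for *Scgb1a1* and 0.405 for *Cbr2*. Their summed level was 1041 and 1279 CPM in *Myh10+/+* lungs and 743 and 922 CPM in *Myh10-/-* lungs. Of 12 pan-epithelial genes 5 fell (*Krt8*, *Cdh1*, *Krt19*, *Elf3* and *Spint2*). *Krt8* and *Krt19* passed in all settings. *Spint2* passed in 9 of 17 and was lost with DESeq2 size factors and library totals among others (adjusted p up to 0.361), *Cdh1* was lost without the first *Myh10+/+* lung (adjusted p = 0.0985) and *Elf3* without the second (adjusted p = 0.193). For the whole list the median was -0.24, and the sum was 1943 and 1957 CPM in *Myh10+/+* lungs against 1702 and 1745 CPM in *Myh10-/-* lungs. *Nkx2-1*, the transcription factor of lung epithelium and the pan-epithelial gene with the most counts, was at 434, 455, 455 and 448 CPM, without separation of genotypes. No club cell or pan-epithelial marker was at 0. The summed members came to 52.8% and 55.9% of the pan-epithelial sum in *Myh10+/+* lungs and to 60.2% and 56.0% in *Myh10-/-* lungs. The pan-epithelial sum was itself lower in both *Myh10-/-* lungs, so this ratio depends on both sums. Relative to the intraflagellar transport sum the members were at 81.7% and 85.6% in *Myh10+/+* lungs and at 79.6% and 77.9% in *Myh10-/-* lungs. Relative to the club cell sum they were at 98.5% and 85.6% in *Myh10+/+* lungs and at 138% and 106% in *Myh10-/-* lungs, and relative to the ciliated markers at 273% and 286% against 365% and 308%. Most of the ciliated marker sum was *Sec14l3*, so this last ratio mainly sets the members against 1 gene. The part of epithelial content in the lower values of the members was not tested.

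**Figure D5:**
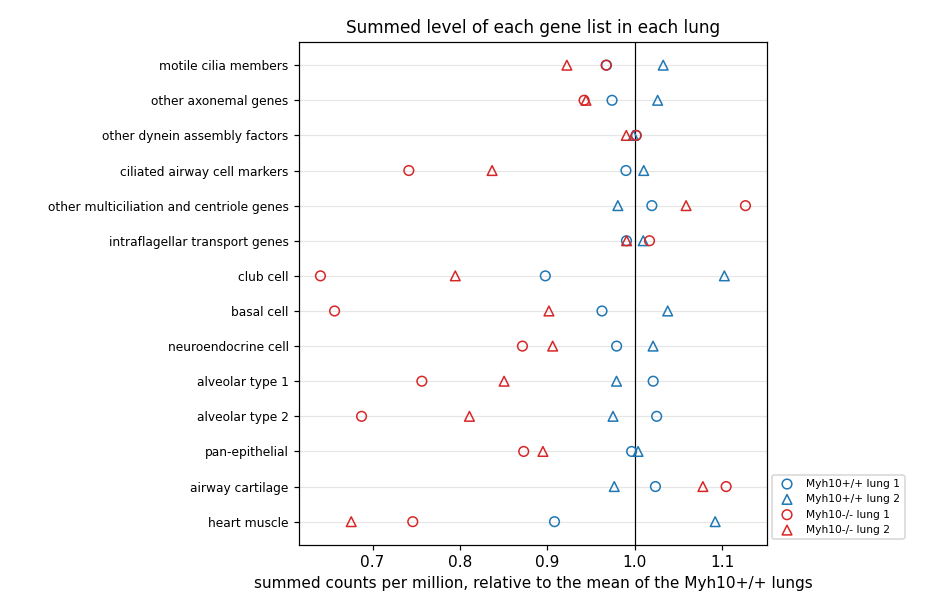
Summed CPM of each gene list in each lung, divided by the mean of the *Myh10+/+* lungs (vertical line at 1), with symbols as in the plot of levels by gene. The motile cilia genes and other axonemal genes lie between 0.922 and 1.03, and the intraflagellar transport genes between 0.990 and 1.02. The ciliated airway marker, club cell, basal cell, alveolar and heart muscle lists reach below 0.8.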

How the data were processed

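Whole left lung lobes of 4 E17 embryos (2 per genotype, groups taken from the sample labels) were profiled by RNA-seq. The authors deposited raw counts of reads per Ensembl gene, without normalization. To make them, stranded mRNA libraries were read from 1 end for 75 bases, and reads were quality-trimmed (Reaper), mapped with STAR 2.4.0a on GRCm38 and assigned to exons by featureCounts 1.5.1. Multi-mapping reads and reads shared by more than 1 gene were dropped. Whether the strand was used in counting is not given in the sources used here. Annotation columns of the table were not used.

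Genes whose counts averaged 5 or more across the lungs were tested with edgeR 4.0.16 in R 4.3.3 (TMM, glmQLFit with robust = FALSE, glmQLFTest) and adjusted by Benjamini-Hochberg over all 18763 genes. The SE is the size of the log2 fold change over the square root of F, and intervals are 95%. The test was checked on simulated data. The members and lists were chosen with earlier results of these data known, and no list was tested as a set. Precision is limited by the depth and by the 2 lungs per genotype, and counting intervals cover counting error only. DESeq2 gave no adjusted p for genes under its own filter on low means, and these were left out of its counts of calls. Sums over lists include every gene found in the table. Named are all regulators, members with an unadjusted p under 0.05, the 3 largest rises and falls, the 5 members with the most counts, the most counted of each role, *Dnah7a* and *Dnah7b*, and in other lists the genes past the adjusted threshold and the most counted. Other members are given more briefly, and *Dnaic1* and *Dnaic2* were added after it was seen that their newer symbols were absent.

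Alternatives were DESeq2 size factors or library totals, other filters (none, filterByExpr, a mean of at least 50), robust = TRUE, the Wald test of DESeq2 1.42.0, the replicate number as a block, leaving out chromosomes X, Y and MT, an offset for GC content and exon length (loess, span 0.3), and leaving out each lung. Exon length, coordinates and overlaps came from GENCODE vM21 (GRCm38), which matched 45143 of 45706 genes, and promoters from RefSeq (GRCm38.p6). The half-sites were chosen with the fold changes known.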

Additional observations from a re-analysis of the deposited data

How the results depend on the processing

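Among 52 single genes (the members, *Dnaic1*, *Dnaic2*, *Sec14l3*, *Sass6*, *Sftpc* and *Scgb3a2*), 771 of 814 values under 16 other settings (values without an adjusted p left out) kept their side of the adjusted threshold, 34 passed it newly and 9 lost it. The call of 37 genes did not change, and 13 changed sign in some setting without passing. Genes called over the whole table numbered 308, and 1162 without a filter on low counts, 474 with robust = TRUE, 514 with the GC and length offset and the block together, and 191 to 1826 when 1 lung was left out. Members called numbered 0, but 6 without the filter (*Tppp3*, *Dnah5*, *Rsph1*, *Foxj1*, *Dnali1* and *Drc1*, all lower), 2 with robust = TRUE (*Tppp3* and *Dnali1*), 1 without chromosomes X, Y and MT (*Tppp3*), 1 with the GC and length offset (*Dnah5*), 2 with the offset and block (*Dnah5* and *Dynlrb2*) and 0 to 6 with 1 lung left out. Without the first *Myh10+/+* lung this was *Dnali1*, without the first *Myh10-/-* lung *Foxj1*, *Dnali1* and *Drc1*, and without the second *Myh10-/-* lung *Tppp3*, *Dnah5*, *Rsph9*, *Tekt2*, *Dnah11* and *Rfx3*, the last 2 higher. The lone lung is assumed there to vary like the others. The member median (-0.15) stayed between -0.18 and -0.068 in these fits. Beside the calls of members, all genes gave 1162 of 28549 without the filter, 474 of 18763 with robust = TRUE and 379 of 18114 without chromosomes X, Y and MT. They gave 461 of 18763 with the GC and length offset and 514 of 18763 with the offset and block. Calls in the other lists numbered 31 (12 held in all settings and all 31 kept their sign), 49 without the filter and 22 to 48 with 1 lung left out, the highest without the second *Myh10-/-* lung and the lowest without the second *Myh10+/+* lung. *Dnaic2* lost its call with DESeq2, a mean of at least 50 counts, 3 of the lungs left out and the crossed block. Library totals gave 346 calls with 67.6% lower against 81.8%, with the median of all genes at 0.02 and 33 of 46 members below 0. The causes of these shifts were not tested. With the replicate number as a block, 710 genes and 1 member (*Dnah5*) were called. The numbers share no stated litter, and deviations of same-numbered lungs correlated at -0.297 over all genes and at 0.011 without chromosomes X, Y and MT, so no pairing is shown. A crossed block, added after seeing the data, called 415 genes and 1 member.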

Other observations

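Markers of other cells that a left lobe can hold also differed in level. Of 10 alveolar type 1 genes 8 fell (*Rtkn2*, *Aqp5*, *Ager*, *Clic5*, *Akap5*, *Pdpn*, *Emp2* and *Hopx*), with a median log2 fold change of -0.40, while *Cav1*, the one with the most counts, was at 1144, 1119, 1064 and 1121 CPM. *Rtkn2* and *Ager* passed in all settings. *Aqp5* and *Hopx* were lost with DESeq2 and with robust = TRUE (adjusted p up to 0.237 and 0.232) and *Clic5* with DESeq2 (adjusted p = 0.0571). *Hopx* was also lost at a mean of at least 50 counts, *Pdpn* without the first *Myh10+/+* lung (adjusted p = 0.0544), *Akap5* without the second *Myh10+/+* or the first *Myh10-/-* lung (adjusted p up to 0.122), and *Emp2* when the minimum mean was 50 and without each lung but the second *Myh10-/-* (adjusted p up to 0.201). Of 11 alveolar type 2 genes 8 fell (*Sftpd*, *Sftpa1*, *Sftpb*, *Napsa*, *Lpcat1*, *Lamp3*, *Slc34a2* and *Abca3*), with a median of -0.41. *Sftpb* was lost without the second *Myh10+/+* lung (adjusted p = 0.0807), *Lamp3* without the first (adjusted p = 0.0577), *Slc34a2* with DESeq2 and without the first *Myh10-/-* lung (adjusted p up to 0.0882), and *Abca3* at a mean of at least 50 counts, without the first *Myh10+/+* lung and with the crossed block (adjusted p up to 0.325). *Sftpc*, by far the most counted, was at 5815, 5630, 3876 and 4750 CPM, lower in both *Myh10-/-* lungs (adjusted p = 0.173). Of the 10 heart muscle genes tested 5 fell (*Myh6*, *Myl7*, *Ryr2*, *Tnnt2* and *Myl4*), with a median of -0.51 and the most counts on *Actc1*. *Myl7*, *Tnnt2* and *Myl4* lost their call without the second *Myh10+/+* lung (adjusted p up to 0.0519, 0.202 and 0.261), and *Myl4* also at a mean of at least 50 counts. All of these calls are from the quasi-likelihood test of edgeR.

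In airway lists with few counts no gene passed that test, where 16.5% of all genes had an unadjusted p under 0.05. The 5 basal cell genes tested had a median of -0.36, with most counts on *Krt15* and 2 at an unadjusted p under 0.05. The 11 neuroendocrine genes had a median of -0.20, with most counts on *Ddc* and 1 at an unadjusted p under 0.05. The 10 airway cartilage genes tested had a median of 0.13, with most counts on *Hapln1* and 2 at an unadjusted p under 0.05, both higher. *Scgb3a2*, the club cell gene with the most counts, was at 489, 658, 408 and 485 CPM, lower in both *Myh10-/-* lungs by a log2 fold change of -0.36 (adjusted p = 0.147).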
